A study of Mus musculus with 6 samples.

Results

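The genes described here are 37 enzymes of the urea cycle and of amino acid breakdown, taken by gene symbol from the 34352 genes that the deposited data name. All 37 were found, and all 37 passed the filter on low values (3 or more of the 6 libraries at FPKM 1 or above), as did 9908 genes in all. FPKM is fragments scaled to gene length and to library size, a level that can be compared between genes. The tissue was liver of wild-type C57BL/6 mice. The cadmium group was gavaged daily with CdCl2 (cadmium chloride) at 20 mg/kg over 90 days. The control group had 0 mg/kg over the same period, and each group has 3 libraries. Mice were 6 to 8 weeks old when housed and 6 were assigned to a group, but nothing in the labels ties mice to libraries. Each p therefore reflects spread among libraries, which may be technical in part.

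The liver disposes of most of the nitrogen released when amino acids are degraded. Aminotransferases and deaminases pass it on as glutamate, aspartate or ammonia, hepatocytes around the portal vein turn it into urea, and those around the central vein trap the remaining ammonia as glutamine. The carbon skeletons go through a separate pathway for each amino acid, many of them most active in liver.

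Each library is an input fraction, which the labels describe as RNA left unbound by an antibody against N6-methyladenosine, so a difference in total abundance and a difference in the share bound cannot be told apart. In bulk tissue, fewer cells of a type and less RNA per cell cannot be told apart either. The mice are labelled male, but Xist, a transcript of the inactive X chromosome in female cells, had 27.1 to 35.5 FPKM in cadmium libraries and 19.7 to 25.8 FPKM in control libraries, and the Y-linked Kdm5d and Uty were at most 6.76e-05 FPKM in all 6. These levels go against the labelled sex in both groups. The metallothionein Mt1, which binds cadmium, had 378 to 729 FPKM in cadmium libraries and 7.39 to 41.3 FPKM in control libraries. The hepatocyte marker Alb had 10130 to 17899 FPKM in cadmium libraries and 10244 to 17478 FPKM in control libraries, and the 2 measured markers of kidney proximal tubule summed to at most 0.0304 FPKM. Of 9 measured hepatocyte markers, 1 (Fgb, a fibrinogen chain) rose. All 9 had a log2 fold change above 0 on the FPKM + 1 scale, with a median of 0.25. The cadmium libraries lay wholly above control for 4 of them (Apoa1, Fgb, Serpina1c and Hpx), against 26.4% of all genes. Of 6 tested stellate cell markers 5 rose, against 7.86% of all genes, with a summed level of 29.3 to 32.6 FPKM in cadmium livers and 12.3 to 19.0 FPKM in control livers. The summed Kupffer cell markers were 42.3 to 51.7 FPKM in cadmium livers and 24.9 to 41.8 FPKM in control livers, with 1 of 6 tested markers (Adgre1) higher. Kupffer markers did not all lie one way: Marco and Vsig4 overlapped between groups, and Timd4, below the filter, had 0.0684 to 0.111 FPKM in cadmium livers and 0.396 to 0.725 FPKM in control livers. The summed sinusoidal endothelial markers were 27.5 to 37.6 FPKM in cadmium livers and 20.3 to 30.5 FPKM in control livers, which overlap, with 1 of 6 (Lyve1) higher. Their part in the results below was not tested.

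Promoter windows were available from RefSeq (build GRCm38.p6) for 26 of the 37 genes, as 27 windows of 300 bases that run from 250 bases before to 50 after the start. The 4 shown belong to genes whose cadmium and control libraries did not overlap in level. They are Amt at chr9:108296655-108296954 (plus strand), Gldc at chr19:30175392-30175691 (minus strand), Ahcy at chr2:155074448-155074747 (minus strand) and Nags at chr11:102145263-102145562 (plus strand). Hal, Fah, Cbs and Gpt2 did not overlap either, and their windows are not shown. For Asl and Gpt, which also did not overlap, no window was available. Capitals mark each match, on either strand, to CCAAT (the CCAAT box) or GGGCGG (the GC box).
Amt: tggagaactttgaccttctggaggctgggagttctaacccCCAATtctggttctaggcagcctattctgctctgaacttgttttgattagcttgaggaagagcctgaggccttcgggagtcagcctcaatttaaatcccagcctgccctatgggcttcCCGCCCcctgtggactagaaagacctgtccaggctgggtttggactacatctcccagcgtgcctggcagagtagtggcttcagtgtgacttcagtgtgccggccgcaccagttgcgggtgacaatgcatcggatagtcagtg
Gldc: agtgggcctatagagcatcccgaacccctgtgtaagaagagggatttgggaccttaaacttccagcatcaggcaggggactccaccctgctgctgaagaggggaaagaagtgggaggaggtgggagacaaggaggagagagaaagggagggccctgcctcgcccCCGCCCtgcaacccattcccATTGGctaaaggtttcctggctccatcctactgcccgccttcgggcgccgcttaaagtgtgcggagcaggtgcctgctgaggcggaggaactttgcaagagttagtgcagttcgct
Ahcy: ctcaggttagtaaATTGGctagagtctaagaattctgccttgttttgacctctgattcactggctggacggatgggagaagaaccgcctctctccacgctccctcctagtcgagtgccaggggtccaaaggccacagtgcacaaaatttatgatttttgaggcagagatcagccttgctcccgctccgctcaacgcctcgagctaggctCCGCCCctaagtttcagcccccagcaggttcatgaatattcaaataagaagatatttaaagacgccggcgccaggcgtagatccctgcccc
Nags: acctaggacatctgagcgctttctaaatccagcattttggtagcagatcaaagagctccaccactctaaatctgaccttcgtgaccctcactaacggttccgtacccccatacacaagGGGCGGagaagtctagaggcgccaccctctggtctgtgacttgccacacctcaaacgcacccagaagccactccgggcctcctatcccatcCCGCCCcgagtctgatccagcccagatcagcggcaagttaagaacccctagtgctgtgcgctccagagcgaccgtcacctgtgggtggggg
The Amt window holds a CCAAT match that begins 210 bases before the start, and the Gldc window holds one 66 bases before it. CCAAT was found in 16 of the 27 windows (59.3%), against 37.4% of all 32851 windows of this length, and GGGCGG in 13 (48.1%), against 35.7%. TATAAA was in 3 windows (11.1%, against 13.6%), CACGTG in 2 (7.41%, against 7.15%) and TGACGTCA in 0 (against 1.79%). A match is a string of letters and does not show binding.

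Between cadmium and control livers, 2 of the 37 enzymes passed the test. Asl, the argininosuccinate lyase of the urea cycle, fell, and Amt, the aminomethyltransferase of the glycine cleavage system, rose. Here a gene is said to rise or fall where limma gave an adjusted p of at most 0.05 over all 9908 genes. The count of 1 member higher compares with 7.86% of all genes, and the count of 1 member lower with 1.82%. An unadjusted limma p under 0.05 was reached by 6 members (16.2%), higher for Amt, Hal and Cbs and lower for Asl, Ahcy and Gpt2, against 27.0% of all genes. The cadmium libraries lay entirely above the control libraries for 5 members (Hal, Fah, Gldc, Amt and Cbs; 13.5%), against 26.4% of all genes. They lay entirely below for 5 (Nags, Asl, Ahcy, Gpt and Gpt2; 13.5%), against 7.24%. The balance of higher and lower over all genes depended on how libraries were scaled. In the authors' deposited table, 6.92% of the 9908 genes were higher and 9.35% lower at an FDR of at most 0.05. The members were also chosen with earlier results of these data known, so these shares do not test the members as a set. The median log2 fold change on the FPKM + 1 scale was -0.05 over the members and 0.09 over all genes. Relative to the median of all genes the members stood at -0.14. This difference stayed below 0 in every alternative run, but those runs reuse the same libraries. The members' median deviation from their group mean had an SD of 0.13 over single libraries, about the size of -0.14. That SD was not taken relative to all genes, so it is a rough scale and no test of -0.14.

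The intervals show how tightly the members were measured. In 33 of 37 genes the 95% interval of the log2 fold change lay within 1 in both directions, and in 31 of 37 it crossed 0. The 4 intervals that reached beyond 1 were those of Asl, Amt, Gldc and Bhmt. Mean levels differed by less than 25% between the groups for 30 genes. The sign of the fold change depended on how libraries were scaled for 7 genes (Otc, Uroc1, Sds, Kmo, Haao, Bckdha and Bckdhb), which carry no direction below.

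**Figure D1:**
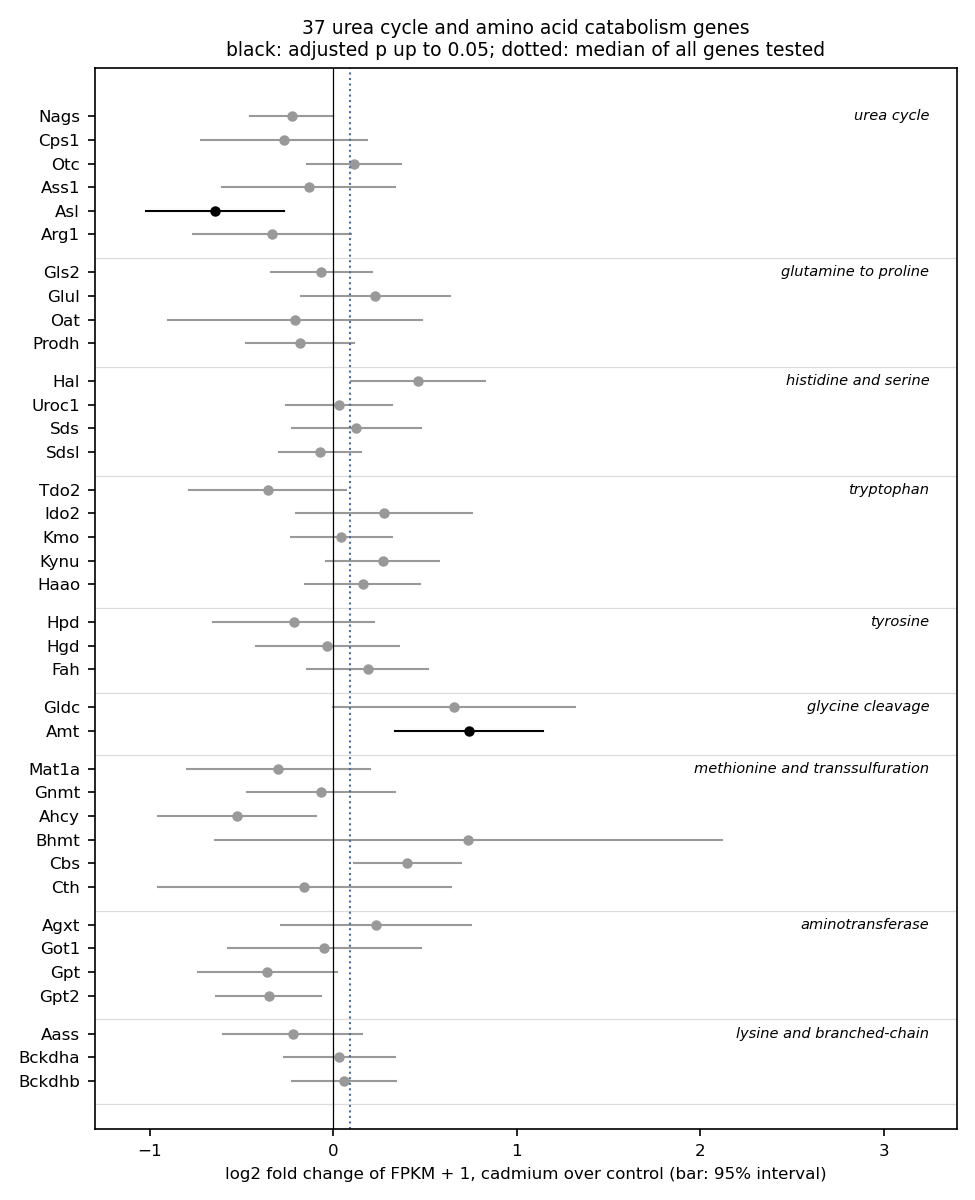
The log2 fold change of FPKM + 1, cadmium over control, on the horizontal axis for each of the 37 genes, with its 95% interval, grouped by pathway. Asl and Amt, in black, passed the test, the widest interval belongs to Bhmt, and the dotted line is the median of all genes at 0.09.

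Of the 6 urea cycle enzymes, 1 fell and none rose, with a median log2 fold change of -0.25. The summed level of the 6 was 1419 to 1750 FPKM in cadmium livers and 1730 to 2173 FPKM in control livers. Asl, which splits argininosuccinate into arginine and fumarate, lies on the minus strand of chromosome 5 from 130011258 to 130029247 (mm10). Its level was 69.1, 68.5 and 64.7 FPKM in cadmium replicates 1 to 3, against 85.9, 111 and 124 FPKM in control replicates 1 to 3. All cadmium libraries were below all control libraries, and the cadmium libraries were the closer together. Asl averaged 67.4 ± 2.38 FPKM in cadmium livers and 107 ± 19.6 FPKM in control livers (SD, n = 3 each), a fall of 37.1%. The log2 fold change was -0.65 (SE 0.16, 95% interval -1.02 to -0.27, limma adjusted p = 0.0489). With the replicate number as a block the adjusted p was 0.102, and in 5 of the 6 fits that left out 1 library the call was lost (adjusted p up to 0.175). It was kept without control replicate 1 (adjusted p = 0.0240), and lost with a pseudocount of 0.1 (0.0503) or no filter (0.137).

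The other urea cycle enzymes did not pass the test. Nags makes N-acetylglutamate, the activator that Cps1 needs, and had 19.8, 21.1 and 20.7 FPKM in cadmium livers, against 23.9, 23.5 and 25.2 FPKM in control livers. Its groups did not overlap, but the adjusted p was 0.186, and the opposite-strand gene Gm11586 covers 15.6% of its exonic bases. Cps1, which commits ammonia to the cycle as carbamoyl phosphate, had 582, 496 and 567 FPKM in cadmium livers, against 577, 605 and 816 FPKM in control livers (adjusted p = 0.425). The high control mean of Cps1 came from replicate 3, and the groups overlapped. Arg1, the arginase that releases urea, had 235, 177 and 197 FPKM in cadmium livers, against 214, 262 and 294 FPKM in control livers (log2 fold change -0.33, adjusted p = 0.291). Otc, which joins carbamoyl phosphate to ornithine, averaged 46.5 ± 1.65 FPKM in cadmium livers and 43.0 ± 2.51 FPKM in control livers. Ass1, which makes the substrate of Asl, averaged 738 ± 124 FPKM in cadmium livers and 806 ± 103 FPKM in control livers. Within a library the ratio of Asl to Cps1 was 0.119, 0.138 and 0.114 in cadmium livers, against 0.149, 0.184 and 0.153 in control livers, while the ratio of Asl to Ass1 overlapped between groups. These ratios were chosen after the values were seen.

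**Figure D2:**
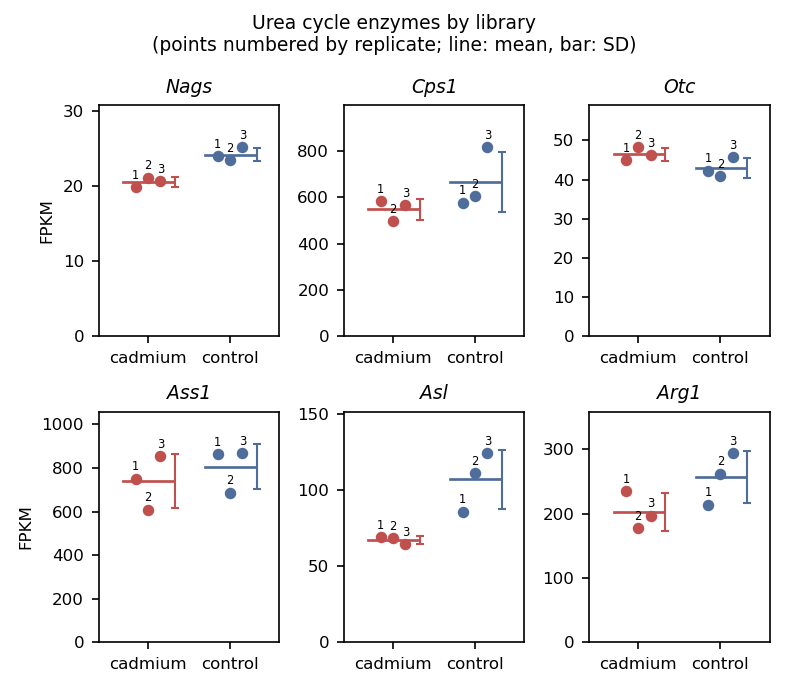
FPKM on the vertical axis for the 6 urea cycle enzymes, with cadmium libraries left of control libraries, points numbered by replicate, a line at the mean and a bar for the SD. For Asl the 3 cadmium points lie between 64.7 and 69.1 FPKM, below all control points, and Cps1, Otc, Ass1 and Arg1 overlap between groups.

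Glutamine, glutamate, ornithine and proline enzymes gave no call among 4 members. Gls2, the liver glutaminase that frees ammonia from glutamine, had 75.8, 81.9 and 80.9 FPKM in cadmium livers, against 77.9, 86.5 and 85.1 FPKM in control livers. Glul, the glutamine synthetase of pericentral hepatocytes, had 227, 316 and 267 FPKM in cadmium livers, against 249, 208 and 229 FPKM in control livers. Both overlapped between groups, with adjusted p of 0.777 for Gls2 and 0.445 for Glul from limma. Oat, which converts ornithine to glutamate semialdehyde, ranged from 186 to 321 FPKM in cadmium livers and from 218 to 382 FPKM in control livers, and replicate 1 was the lowest of both groups. Prodh, the proline dehydrogenase, averaged 15.7 ± 1.87 FPKM in cadmium livers and 17.9 ± 1.82 FPKM in control livers.

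Among the histidine and serine enzymes, 0 of 4 passed the test. Hal, the histidase that starts histidine breakdown, had 76.2, 78.0 and 86.7 FPKM in cadmium livers, against 47.8, 60.7 and 67.1 FPKM in control livers. The groups of Hal did not overlap, and the log2 fold change was 0.46 (SE 0.16, limma adjusted p = 0.108). Uroc1, the urocanate hydratase that acts next, averaged 126 ± 6.32 FPKM in cadmium livers and 123 ± 3.34 FPKM in control livers. Sds, the serine dehydratase that yields pyruvate, had 61.7, 48.6 and 55.3 FPKM in cadmium livers, against 48.2, 45.1 and 58.5 FPKM in control livers. The opposite-strand genes Plbd2 and Gm15690 cover 21.3% and 8.32% of the exonic bases of Sds. Sdsl, a relative of Sds, was the least abundant member, at 3.21 ± 0.447 FPKM in cadmium livers and 3.41 ± 0.0537 FPKM in control livers.

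None of the 5 tryptophan enzymes passed the test. Tdo2, the liver dioxygenase that opens the tryptophan ring, had 114, 119 and 132 FPKM in cadmium livers, against 125, 157 and 191 FPKM in control livers (log2 fold change -0.36, limma adjusted p = 0.261). Its groups overlapped because control replicate 1 lay between cadmium replicates 2 and 3. Downstream, Kmo (kynurenine 3-monooxygenase) averaged 24.7 ± 1.52 FPKM in cadmium livers and 24.0 ± 2.42 FPKM in control livers. Kynu (kynureninase) averaged 12.7 ± 1.20 FPKM in cadmium livers and 10.4 ± 1.64 FPKM in control livers. Haao (3-hydroxyanthranilate dioxygenase) averaged 54.6 ± 3.35 FPKM in cadmium livers and 48.9 ± 6.08 FPKM in control livers. Ido2, a second dioxygenase acting on tryptophan, averaged 19.0 ± 1.03 FPKM in cadmium livers and 16.1 ± 5.42 FPKM in control livers, where replicate 3 alone exceeded the cadmium libraries.

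The 3 tyrosine enzymes also gave no call. Hpd, the dioxygenase that makes homogentisate, had 450, 555 and 560 FPKM in cadmium livers, against 510, 632 and 679 FPKM in control livers (log2 fold change -0.22, limma adjusted p = 0.507). Hgd, which opens the ring of homogentisate, averaged 98.3 ± 11.0 FPKM in cadmium livers and 101 ± 17.4 FPKM in control livers. Fah, the last enzyme of the route, had 113, 113 and 126 FPKM in cadmium livers, against 90.0, 111 and 109 FPKM in control livers. The groups of Fah did not overlap, by a narrow margin, and its adjusted p was 0.438.

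Both glycine cleavage members lay higher in every cadmium library than in any control library, and 1 of the 2 passed the test. Amt, which releases the methylene group of glycine to tetrahydrofolate, lies on the plus strand of chromosome 9 from 108296853 to 108302302 (mm10). Its level was 13.5, 16.1 and 16.1 FPKM in cadmium livers, against 6.48, 9.56 and 10.5 FPKM in control livers. Control replicate 1 was the lowest library, and the highest control library was still below the lowest cadmium library. Amt averaged 15.2 ± 1.49 FPKM in cadmium livers and 8.85 ± 2.11 FPKM in control livers (SD, n = 3 each), a gain of 72.1%. The log2 fold change was 0.74 (SE 0.17, 95% interval 0.34 to 1.14, limma adjusted p = 0.0401). With the replicate number as a block the adjusted p was 0.0516, and in 5 of the 6 fits that left out 1 library the call was lost (adjusted p up to 0.140). It was kept without control replicate 1 (adjusted p = 0.0417), and lost with trimmed mean scaling (0.0532) or no filter (0.155).

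Gldc, the decarboxylase of the same complex, had 27.2, 20.7 and 25.1 FPKM in cadmium livers, against 9.22, 17.8 and 20.1 FPKM in control livers. Its control libraries spread widely, and the log2 fold change of 0.66 (SE 0.28) had an adjusted p of 0.186 from limma. The 2 remaining subunits are not members: Gcsh, the lipoyl carrier, averaged 27.5 ± 0.338 FPKM in cadmium livers and 24.5 ± 1.40 FPKM in control livers, and Dld, the dihydrolipoamide dehydrogenase it shares with other complexes, averaged 13.3 ± 1.19 FPKM in cadmium livers and 12.9 ± 1.70 FPKM in control livers. Neither passed the test, although Gcsh, like Amt and Gldc, lay higher in every cadmium library than in any control library. The ratio of Amt to Dld within a library was 1.13, 1.13 and 1.18 in cadmium livers, against 0.584, 0.721 and 0.727 in control livers. The ratio of Amt to Gcsh was 0.494, 0.589 and 0.578 in cadmium livers, against 0.282, 0.378 and 0.413 in control livers, while the ratio of Amt to Gldc overlapped. These ratios too were chosen after the values were seen.

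In the methionine cycle and transsulfuration, 0 of 6 members passed the test, and individual enzymes lay in both directions. Mat1a, which makes S-adenosylmethionine in liver, had 529, 708 and 652 FPKM in cadmium livers, against 611, 871 and 855 FPKM in control livers (limma adjusted p = 0.417). Gnmt, the glycine N-methyltransferase that consumes it and the most abundant member, averaged 876 ± 42.8 FPKM in cadmium livers and 922 ± 102 FPKM in control livers. Ahcy, which hydrolyses S-adenosylhomocysteine, had 239, 349 and 289 FPKM in cadmium livers, against 390, 407 and 453 FPKM in control livers. All cadmium libraries of Ahcy were below all control libraries, with a log2 fold change of -0.52 (SE 0.19, limma adjusted p = 0.122). Cbs, which joins homocysteine to serine, had 47.3, 49.4 and 48.5 FPKM in cadmium livers, against 32.8, 35.3 and 41.4 FPKM in control livers. All cadmium libraries of Cbs were above all control libraries, with a log2 fold change of 0.40 (SE 0.12, limma adjusted p = 0.0870). Cth, the lyase that completes cysteine synthesis, averaged 80.5 ± 14.8 FPKM in cadmium livers and 94.9 ± 37.7 FPKM in control livers.

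A single library decided the value of Bhmt, which remethylates homocysteine with betaine. It had 319, 273 and 314 FPKM in cadmium livers, against 70.4, 283 and 294 FPKM in control livers. Control replicate 1 was far below the other 5 libraries, and the 95% interval of the log2 fold change ran from -0.65 to 2.12 (limma adjusted p = 0.462). Bhmt2, its neighbouring relative, had 33.6 FPKM in control replicate 1 and 49.8 to 53.3 FPKM in the other 5 libraries. Control replicate 1 was also the library in which the 10 most abundant genes took the largest share of reads, 44.6%, against 33.3% to 35.9% in the others.

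**Figure D3:**
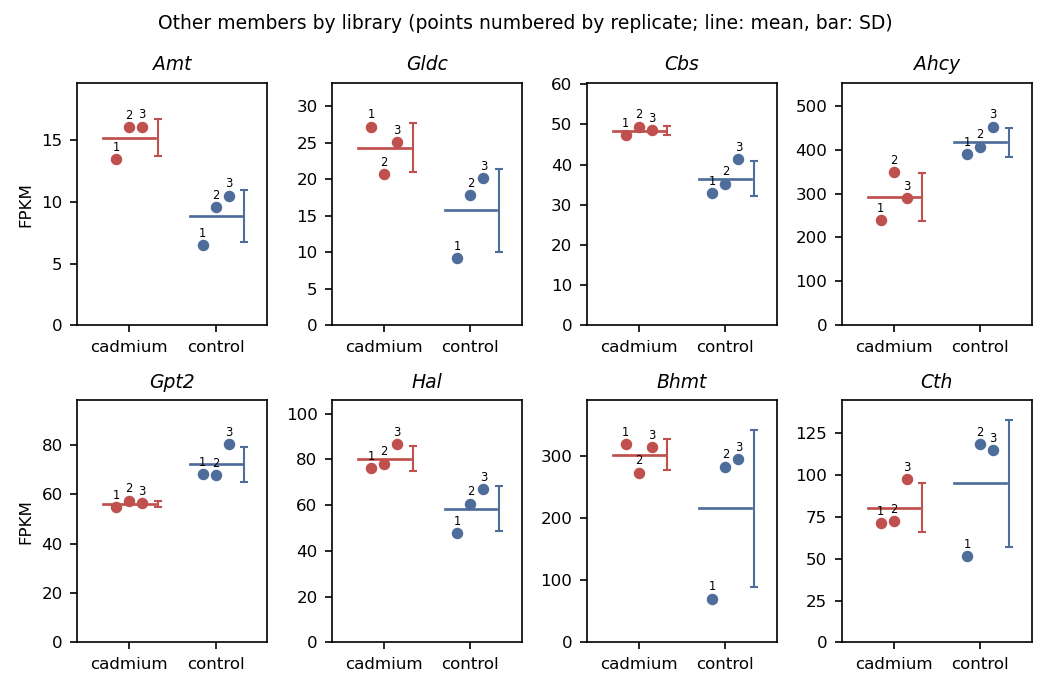
FPKM on the vertical axis for 8 members outside the urea cycle, with cadmium libraries left of control libraries, points numbered by replicate, a line at the mean and a bar for the SD. Amt, Gldc, Cbs and Hal lie higher in all cadmium libraries, Ahcy and Gpt2 lie lower, and control replicate 1 stands apart for Bhmt and Cth.

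Among the aminotransferases, 0 of 4 passed the test. Gpt2, the mitochondrial alanine aminotransferase, had 54.9, 57.4 and 56.3 FPKM in cadmium livers, against 68.2, 67.9 and 80.4 FPKM in control livers. Gpt, its cytosolic counterpart, had 60.5, 85.5 and 77.1 FPKM in cadmium livers, against 87.0, 96.2 and 101 FPKM in control livers. For both genes the cadmium libraries lay below all control libraries. The log2 fold change was -0.35 (SE 0.12, limma adjusted p = 0.119) for Gpt2 and -0.36 (SE 0.16, limma adjusted p = 0.204) for Gpt. Agxt, which moves the amino group of alanine to glyoxylate, had 107, 148 and 128 FPKM in cadmium livers, against 85.6, 144 and 100 FPKM in control livers. Got1, the cytosolic aspartate aminotransferase, averaged 62.7 ± 12.7 FPKM in cadmium livers and 65.1 ± 15.6 FPKM in control livers. Agxt and Got1 overlapped between groups.

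The lysine and branched-chain enzymes gave 0 calls among 3 members. Aass, which starts lysine breakdown, averaged 49.6 ± 4.27 FPKM in cadmium livers and 58.6 ± 10.4 FPKM in control livers. Bckdha, the alpha chain of the branched-chain keto acid decarboxylase, had 66.5, 80.2 and 76.4 FPKM in cadmium livers, against 69.8, 77.6 and 70.0 FPKM in control livers. Bckdhb, the beta chain, averaged 25.8 ± 2.32 FPKM in cadmium livers and 24.7 ± 2.25 FPKM in control livers. The opposite-strand gene B3gnt8 covers 61.7% of the exonic bases of Bckdha, and the sources used here do not say whether counting used strand, so reads of the pair cannot be told apart.

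Levels among the members differed far more than the groups did. Averaged over all libraries, 14 members were above 100 FPKM, 22 were between 10 and 100, and 1 was under 10. In order of level per length, Gnmt, Ass1, Mat1a, Cps1 and Hpd led, and Amt, Kynu and Sdsl came last. The members held 2.27%, 2.39% and 2.46% of reads in cadmium livers, against 2.14%, 2.61% and 2.95% in control livers, so their summed share overlapped between groups. The coefficient of variation had a median of 9.47% over members in cadmium livers and 13.9% in control livers, and it was larger in control livers for 28 of 37. Replicate 1 was the lowest library of its group for 25 members in cadmium livers and for 26 in control livers. Total reads were 42115960, 68587128 and 65662619 in cadmium replicates 1 to 3 and 59095817, 50117621 and 42476574 in control replicates 1 to 3. Replicate 1 had the fewest reads of the cadmium group and the most of the control group, and the part of depth in these levels was not tested.

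**Figure D4:**
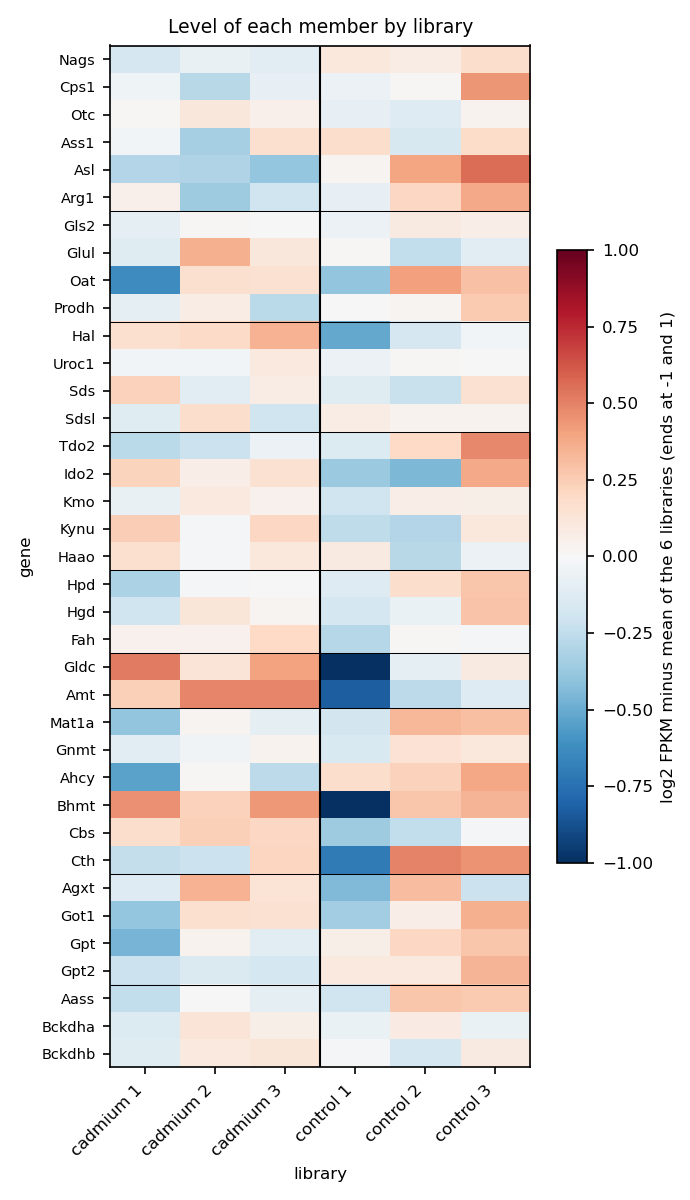
Each row is 1 of the 37 members and each column 1 library, cadmium left of control; colour is log2 FPKM minus the mean of the 6 libraries, with the scale ending at -1 and 1. Control replicate 1 is the lowest control library for 26 members, and cadmium replicate 1 the lowest cadmium library for 25.

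The authors' deposited table gives its own log2 fold change and FDR for each gene, from a test that is not stated. At an FDR of at most 0.05 the authors' deposited table has 1 member higher (Amt, log2 fold change 0.63, FDR 0.00309) and 7 lower, against 6.92% and 9.35% of the 9908 genes. The authors' deposited table has Asl at -0.83 (FDR 2.23e-07), Ahcy at -0.71 (FDR 0.00198) and Nags at -0.42 (FDR 0.0015). It also has Gpt2 at -0.54 (FDR 2.75e-04), Arg1 at -0.52 (FDR 0.0119), Tdo2 at -0.54 (FDR 0.0124) and Gpt at -0.54 (FDR 0.0131) in the authors' deposited table. Fitted here with limma, the deposited log2 values called 5 members (Amt higher, and Nags, Asl, Ahcy and Gpt2 lower). Their scale places the median of all genes at -0.06, against 0.09 in FPKM.

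The wider amino acid pathway was read from lists of 117 partner enzymes, transporters and regulators, of which 113 were measured and 97 passed the filter. Of these, 3 rose (3.09%), against 7.86% of all genes, and 4 fell (4.12%), against 1.82%. The authors' deposited table has 5 of the 113 higher and 14 lower at an FDR of at most 0.05. The lists were chosen with earlier results of these data known, so these shares do not test the pathway as a set. The largest fall in a catabolic enzyme was that of Tat, the aminotransferase that feeds tyrosine to Hpd. It had 159, 247 and 139 FPKM in cadmium livers, against 353, 505 and 492 FPKM in control livers, a log2 fold change of -1.33 (SE 0.26, limma adjusted p = 0.0244). The groups did not overlap, and the ratio of Tat to Hpd was 0.354, 0.446 and 0.248 in cadmium livers, against 0.691, 0.798 and 0.724 in control livers. That ratio was also chosen after the values were seen, and largely restates the fall of Tat.

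Regulators and transport gave the other falls. Cebpb, a transcription factor of hepatic metabolism, had 34.9, 46.9 and 40.0 FPKM in cadmium livers, against 81.8, 107 and 110 FPKM in control livers (log2 fold change -1.27, SE 0.17, limma adjusted p = 0.00994). The opposite-strand gene Tmem189 covers 20.7% of the exonic bases of Cebpb. Slc38a2, a sodium-coupled transporter of neutral amino acids, had 7.09, 8.02 and 7.36 FPKM in cadmium livers, against 13.3, 14.9 and 17.6 FPKM in control livers (log2 fold change -0.93, SE 0.12, limma adjusted p = 0.00925). Foxo1, a transcription factor restrained by insulin, had 4.02, 3.95 and 4.03 FPKM in cadmium livers, against 5.89, 5.69 and 5.43 FPKM in control livers. Foxo1 averaged 4.00 ± 0.0410 FPKM in cadmium livers and 5.67 ± 0.232 FPKM in control livers (limma adjusted p = 0.0216). All 3 were lower in every cadmium library. Cebpb and Slc38a2 kept an adjusted p of 0.0378 and 0.0460 with the replicate block, and without cadmium replicate 3 it was 0.0511 and 0.0510.

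The 3 genes that rose were low to moderate in level. Gatm, the first enzyme of creatine synthesis from arginine and glycine, had 1.80, 2.29 and 1.74 FPKM in cadmium livers, against 1.05, 1.1 and 0.857 FPKM in control livers. It averaged 1.94 ± 0.302 FPKM in cadmium livers and 1.00 ± 0.128 FPKM in control livers (limma adjusted p = 0.0190). Bcat2, the mitochondrial branched-chain aminotransferase, had 4.98, 5.46 and 4.92 FPKM in cadmium livers, against 3.02, 3.30 and 3.79 FPKM in control livers. It averaged 5.12 ± 0.298 FPKM in cadmium livers and 3.37 ± 0.389 FPKM in control livers (limma adjusted p = 0.0244). The opposite-strand gene 0610005C13Rik covers 15.9% of the exonic bases of Bcat2. For all 3 genes, Kyat1 included, every cadmium library was above every control library. Kyat1, a kynurenine aminotransferase, had 18.0, 16.3 and 17.1 FPKM in cadmium livers, against 12.8, 9.76 and 12.4 FPKM in control livers. It averaged 17.2 ± 0.847 FPKM in cadmium livers and 11.7 ± 1.65 FPKM in control livers (limma adjusted p = 0.0404). With the replicate block, Gatm kept its call (adjusted p = 0.0499), and Foxo1 (0.0675), Tat (0.0533), Bcat2 (0.0691) and Kyat1 (0.0703) did not. Without 1 library the adjusted p of these 5 reached 0.0652 for Gatm, 0.101 for Foxo1, 0.0973 for Tat, 0.0928 for Bcat2 and 0.143 for Kyat1. Without the filter all 7 calls were lost, and Kyat1 also lost its call under quantile (0.125) and trimmed mean scaling (0.121).

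**Figure D5:**
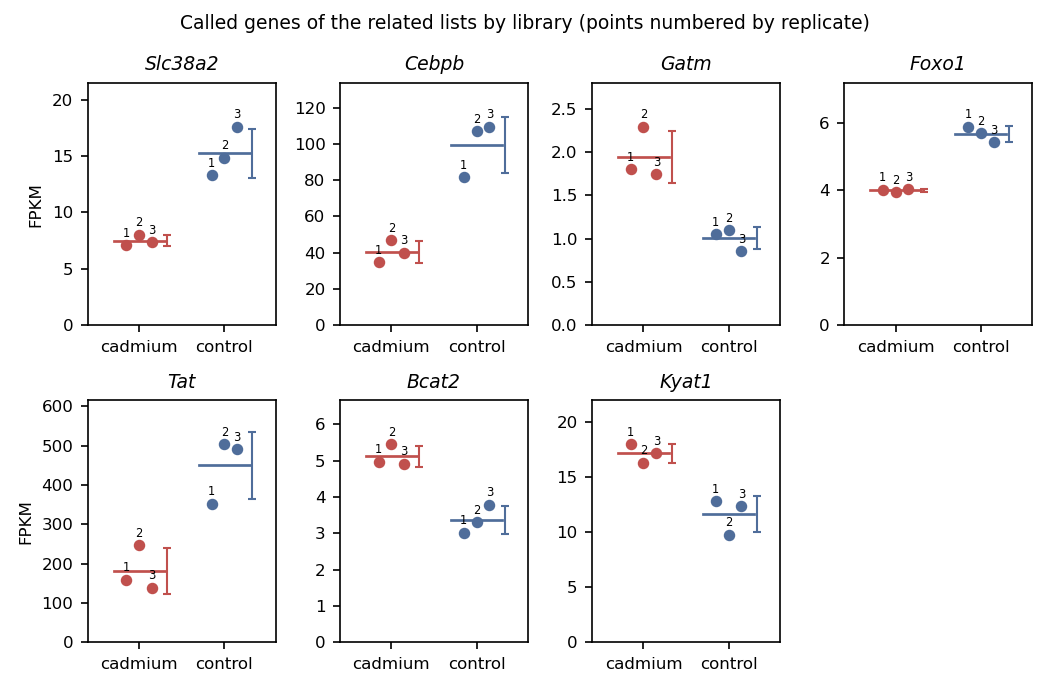
FPKM on the vertical axis for the 7 partner genes that passed the test, with cadmium libraries left of control libraries, points numbered by replicate, a line at the mean and a bar for the SD. Slc38a2, Cebpb, Foxo1 and Tat lie lower in all cadmium libraries, and Gatm, Bcat2 and Kyat1 lie higher.

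Zonation markers outside the member list gave no call, with 0 of 5 tested periportal and 0 of 8 tested pericentral hepatocyte markers passing. Among the periportal markers, Pck1 lay wholly below control and Aldh1b1 wholly above. Pck1 had 185, 400 and 290 FPKM in cadmium livers, against 656, 627 and 471 FPKM in control livers (limma adjusted p = 0.0657). Aldh1b1 had 47.0, 41.6 and 50.7 FPKM in cadmium livers, against 23.3, 33.3 and 33.9 FPKM in control livers (limma adjusted p = 0.0633). With voom on recovered reads the limma adjusted p was 0.0433 for Pck1 and 0.0380 for Aldh1b1. With the deposited log2 values it was 0.0404 for Pck1 and 0.0866 for Aldh1b1. Quantile and trimmed mean scaling left both above 0.05. The authors' deposited table has 1 periportal marker higher and 1 lower at an FDR of at most 0.05. The summed periportal level, which includes Pck1, was 702 to 999.6 FPKM in cadmium livers and 983 to 1201 FPKM in control livers. The summed pericentral level was 1761 to 2634 FPKM in cadmium livers and 2366 to 2461 FPKM in control livers.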

How the data were processed

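Per the labels' protocols, liver RNA was fragmented and exposed to an antibody against m6A, and libraries of the unbound RNA were read as 150-base pairs. The authors deposited FPKM per gene, and a second table of log2 values with a fold change (log2), a p-value and an FDR of their own. The submitters' processing notes name STAR 2.7.1a and cutadapt 1.1.8 among the tools, and build mm10. Neither the counter nor the annotation release is given in the sources used here. The deposited log2 values are counts divided by a size factor, plus 1: 100% came out as whole reads within 0.05.

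The comparison was fitted with limma 3.58.1 (R 4.3.3) on log2(FPKM + 1), trended and robust, two-sided, with Benjamini-Hochberg adjustment over 9908 genes and a threshold of 0.05. This scale understates changes of low genes. Depth was 42115960 to 68587128 reads, and members had 237 to 249725 reads per library. The script was tested on simulated data. Alternatives were a pseudocount of 0.1, no filter, quantile and trimmed mean scaling, the deposited log2 values, voom on recovered reads, a replicate block, and leaving out libraries.

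The labels give the replicate number as a batch holding 1 library of each group, so pairing comes from the labels. Deviations from group means of same-numbered libraries correlated at -0.21, -0.23 and -0.02. Members and lists were chosen with earlier results of these data known. All 37 members are named, with every library given for called and non-overlapping members, for chosen enzymes of each pathway and for called genes of the partner lists. The partner counts omit 1 gene, which is not reported here. Genome positions come from GENCODE on mm10.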

Additional observations from a re-analysis of the deposited data

How the results depend on the processing

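Asl kept its sign in every fit. Its adjusted p was 0.0115 to 0.0362 with the deposited log2 values, trimmed mean scaling, quantile normalization, voom and 2 libraries left out together, and 0.0503 with a pseudocount of 0.1 and 0.137 with no filter. Amt had 0.0242 with voom, 0.0438 with a pseudocount of 0.1, 0.0469 with the deposited log2 values and 0.0495 with quantile normalization, and 0.0532 with trimmed mean scaling, 0.073 with 2 libraries left out together and 0.155 with no filter. With the pseudocount of 0.1, members lower numbered 0. With no filter, calls numbered 31 higher and 6 lower over all genes, and 0 in each direction among members and among partner genes. Over all genes, 347 genes were higher and 298 lower after quantile normalization, 380 and 287 under trimmed mean scaling (members higher 0), and 381 and 493 in the deposited log2 values (4 members and 7 partner genes lower). On log2(FPKM + 1) with the filter these were 779 and 180. The replicate block gave 184 higher and 64 lower over all genes, 0 members in each direction, and 1 partner gene higher and 2 lower. Leaving out 1 library gave 78 to 539 genes higher and 23 to 242 lower, 0 to 1 members in each direction, 0 to 3 partner genes higher and 0 to 5 lower. An alternative added after seeing the data left out control replicate 1 and cadmium replicate 2, whose deviations correlated most (0.28): it gave 478 genes higher, 0 members higher and 1 partner gene higher. The members' median minus that of all genes ran from -0.19 to -0.05.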
